A study of Zostera marina with 23 samples.

Results

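The genes described here are 100 nuclear genes of eelgrass, Zostera marina, whose messenger RNA stood far higher in the female flower late in its development than early. They were chosen from these same measurements. On the scale log2(value + 1), every late library had to lie above every early library, the late median had to be at least 6 and at least 2 above the early median, and the 100 genes with the largest difference were kept. Of 22537 identifiers considered, after 196 with the prefixes ZosmaC and ZosmaM had been set aside, 215 met these thresholds. The late against early difference is therefore a description of how the genes were chosen and was not tested. The genes are called late-high genes here.

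Eelgrass is a flowering plant that lives, flowers and sets seed under seawater. Its flowers sit on a spadix enclosed in a leaf-like sheath, female and male flowers share that spadix, and the female flowers become receptive before the male ones shed their thread-like pollen into the water. After pollination the ovary grows into a fruit that holds the seed. Gene activity in a late female flower can therefore come from stigma, ovary wall, ovule and young seed, and in bulk tissue a change in the number of cells of a type cannot be told apart from a change in RNA per cell.

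The plants were wild shoots from the field, kept in seawater tanks that were warmed from 5 to 15 °C while the daily light was lengthened from 12 to 16 hours, which brought them into flower. All 5 groups shared this treatment. Sequencing of polyadenylated RNA covered 23 libraries: 3 of early and 3 of late female flower, 7 of male flower, 4 of root and 6 of leaf, the last titled vegetative by the submitters. The labels give no strain or genotype. Nor do they tie replicates to separate plants, and any p-value therefore reflects the spread among these samples alone, which may be technical.

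Some libraries need naming before the results. Among the late female libraries, the library numbered 3 has a title that says early and a tissue label that says late. The choice of genes placed it in the late group, and it is called the library of conflicting labels. The deposited table holds fragments multiplied by a factor for each library, called scaled fragments here, and the libraries held 5696800 to 13679082 fragments. In leaf replicates 1 and 4, genes enriched in female flower (673 genes at least 4-fold above each other tissue, late-high genes left out) took 2.64% and 1.05% of the signal, against 0.0645% to 0.163% in the other leaf libraries. Root-enriched genes took 5.30% in root replicate 2 but 9.59% to 11.9% elsewhere in root. Male-enriched genes took 37.98% in male replicate 5 but 57.8% to 66.2% elsewhere in male flower. The files give identifiers without gene names, so function is not described, the tissues could not be checked against known marker genes, and few identifiers are named for each comparison.

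Taken as a group, the late-high genes held little of the RNA early and much more late. They took 0.0794%, 0.0944% and 0.131% of all fragments in early replicates 0, 1 and 2. In the late libraries they took 1.26% in replicate 0, 1.28% in replicate 1 and 1.31% in the library of conflicting labels, so all 3 late libraries lay close together. The share in root was higher still, at 1.94%, 1.81%, 1.99% and 2.11% in replicates 0 to 3. In leaf it ran from 0.945% over a median of 1.70% to 2.53%, and in male flower from 0.0517% over a median of 0.0759% to 0.186%. Male flower thus overlapped with early female flower, while every root library lay above every late library. These shares do not depend on the factor of a library. The root signal was concentrated in few genes. Zosma20g00840 alone made up 30.9% of the summed root signal of the late-high genes, and the top 10 made up 76.9%. For the late signal the highest gene made up 23.1% and the top 10 made up 58.2%. With Zosma20g00840 taken out of the sum, root replicates 0 and 1 would lie below every late library. Root replicates 2 and 3 would still lie above.

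The middle of the distribution moved in the same way in the female flower, but leaf was split. The median of the 100 genes on the log2 scale was 4.06, 3.97 and 2.63 in early replicates 0 to 2. It was 8.23 and 7.93 in late replicates 0 and 1 and 8.58 in the library of conflicting labels. Root libraries had medians from 6.60 to 7.43. Male libraries ranged from 3.31 to 6.05, with replicate 2 highest. The leaf medians fell far apart, at 4.38, 4.12 and 4.07 in replicates 0, 3 and 5 and at 6.89, 7.63 and 7.98 in replicates 1, 2 and 4. Over all identifiers considered, the leaf medians were 4.57, 4.58 and 4.67 in replicates 0, 3 and 5. In leaf replicates 1, 2 and 4 they were 6.26, 4.82 and 5.78. No late library had a late-high gene at 0, whereas 5 to 14 of the genes were at 0 in an early library and 10 to 22 in a leaf library.

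**Figure D1:**
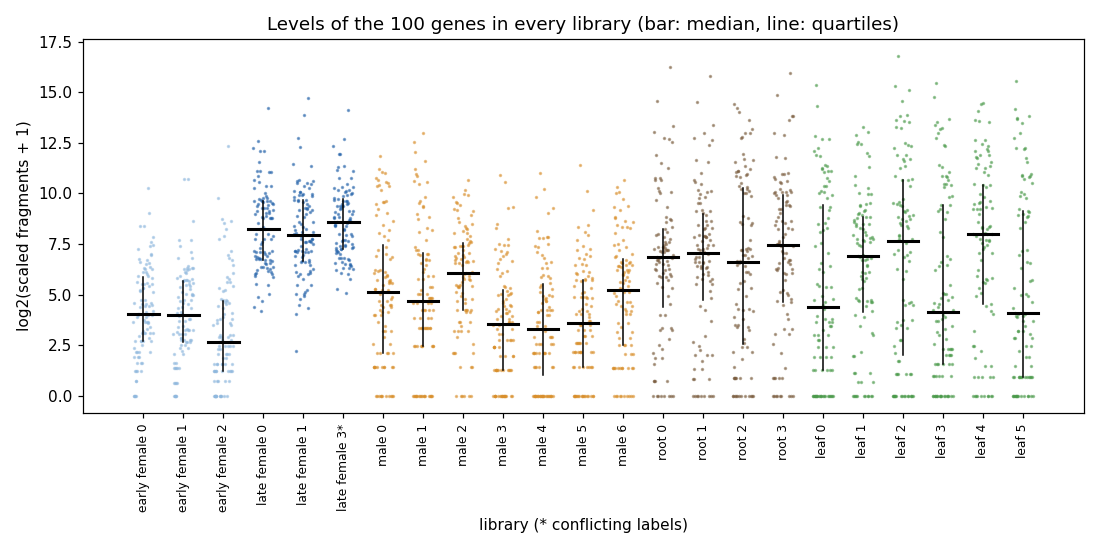
Level of each of the 100 late-high genes, as log2(scaled fragments + 1) on the vertical axis, in each of the 23 libraries, with a bar at the median and a line between the quartiles. The 3 late female medians lie between 7.93 and 8.58, the early ones between 2.63 and 4.06, and the 6 leaf medians spread from 4.07 to 7.98.

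The difference that chose the genes ranged from 8.73 down to 3.15 on the log2 scale, with a median of 4.20. It was at least 4 for 56 genes and at least 6 for 15. The last gene kept, Zosma32g00910, had a difference of 3.15, and the first left out, Zosma87g00160, had 3.13, so the edge of the list falls among genes that hardly differ. In 15 genes at least 1 early library stood at 0, and 2 genes were at 0 in all 3 of them.

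Zosma207g00130 had the largest difference. It stood at 11.6, 7.33 and 10.4 scaled fragments in early replicates 0 to 2, and at 4833 and 2785 in late replicates 0 and 1 and 5247 in the library of conflicting labels. The mean of the late libraries was 439-fold that of the early ones, from 47 early fragments. Root held 0.747 to 4.89. In leaf the gene was split, at 249, 725 and 591 in replicates 1, 2 and 4 but 1.42, 17.95 and 19.03 in replicates 0, 3 and 5. In male flower it ranged from 1.57 over a median of 4.94 to 891, the highest value being replicate 2, where the next highest male library had 22.6.

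Zosma860g00010 came next, and unlike Zosma207g00130 it was nearly absent outside late female flower. Only 1 fragment was counted in the early libraries, in replicate 1. The late libraries held 20.005 in replicate 0, 332 in replicate 1 and 437 in the library of conflicting labels. Both groups were apart, but the late values differed among themselves by more than 10-fold. The gene was at 0 in all 4 root and all 6 leaf libraries and reached at most 3.27 in male flower.

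The pair of genes with the highest late level, both already active early, had smaller differences. Zosma2g00100 stood at 1247, 1671 and 5173 in early replicates 0 to 2. Late replicates 0 and 1 held 19105 and 26450, and the library of conflicting labels held 17632. This gene alone made up 23.1% of the summed late signal of the 100 genes, and per length it was also the highest, with a late median of 3869 FPKM. In leaf it ranged from 25.9 over a median of 2483 to 8270, so some leaf libraries exceeded the early female ones. Zosma378g00030 stood at 335, 1674 and 366 in the early libraries in order of number, and at 4380, 15044 and 6566 in the late ones in the same order. In leaf replicates 1, 2 and 4 it stood at 9939, 3375 and 22848, against 15.0 to 21.3 in the other 3.

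Each female library was also kept out of the choice in turn. The other side of the comparison still helped to choose the genes, so only the value of the library left out is free of the choice, and genes chosen for low early values can be above them in any late library. When the genes were chosen again from late replicates 0 and 1 alone, 99 of the 100 genes so chosen stood above every early library in the library of conflicting labels. Among all 11560 genes with a median of at least 6 in late replicates 0 and 1, that was true of 36.6%. The median difference to early in the library left out was 4.05, against 3.88 in the libraries that chose the genes and 0.05 over all those genes. The lowest difference among the 100 was 0.11. Leaving out late replicate 0 or 1 instead gave 100 and 94 genes above every early library, beside 37.5% and 41.8% of all genes. Leaving out early replicate 0, 1 or 2 gave 93, 100 and 98 genes below every late library, beside 40.1%, 39.6% and 37.6%. Each of these counts rests on 1 library and has no replicate.

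**Figure D2:**
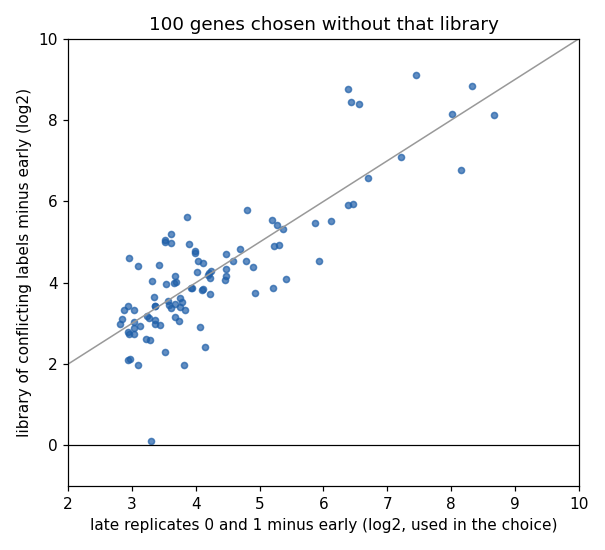
Each point is one of 100 genes chosen without the library of conflicting labels. The horizontal axis gives the log2 difference between late replicates 0 and 1 and the early libraries, which chose the genes, and the vertical axis the log2 difference between the library left out and the early median. Only 1 point lies near 0, at 0.11, and the median on the vertical axis is 4.05.

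The membership itself depended on that library. Applied without it, the choice kept 79 of the 100 genes, and leaving out each of the other 5 female libraries kept 79 to 91. With the library counted as early, only 50 genes met the thresholds and 22 of them were late-high genes, which is 44.0% of that list.

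Outside the female flower the late-high genes were sorted into patterns by a chosen cutoff. A gene was counted as shared with a tissue when the median of that tissue was no more than 2 log2 units below the late median. By this count 56 were shared with root, 44 with leaf and 21 with male flower, and 33 with none of them. Among all 11617 genes with a late median of at least 6, 86.1% were shared with root, 76.7% with leaf, 78.6% with male flower and 5.57% with none. The late median and its difference from early were used in the choice, so these shares are given without a test. Equal library totals gave 54 shared with root, 40 with leaf, 12 with male flower and 39 with none. Without the library of conflicting labels in the late median the counts were 57, 45, 28 and 33 in the order above. A cutoff of 1 log2 unit gave 51, 39, 11 and 40 in that order, and a cutoff of 3 gave 66, 48, 37 and 23.

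**Figure D3:**
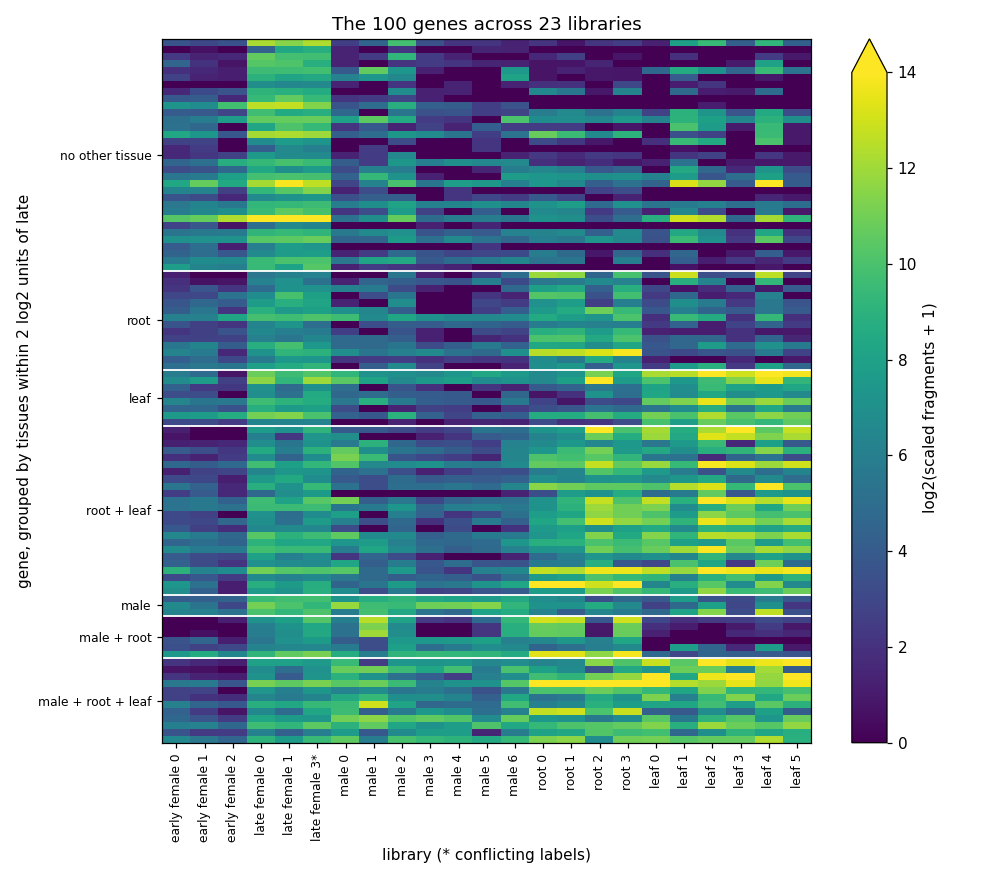
Each row is one of the 100 late-high genes and each column one of 23 libraries, coloured by log2(scaled fragments + 1). Rows are grouped by the other tissues whose median lies no more than 2 log2 units below the late median; the top block of 33 genes is high in late female flower and shared with no other tissue by this count, and 24 genes are shared with root and leaf.

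The 33 genes shared with no other tissue were the largest set. Their median of group medians was 9.40 late and 3.997 early, against 2.96 in male flower, 2.13 in root and 1.55 in leaf. All 33 reached 10 scaled fragments in every late library, and 17 to 22 did so in an early one. In leaf, 7, 8 and 7 of them did so in replicates 0, 3 and 5, but 19, 13 and 18 in replicates 1, 2 and 4. Leaf replicates 1 and 4 were also those with the largest share of other female-enriched genes, 2.64% and 1.05%, while replicate 2 had 0.163%; whether this accounts for their levels was not tested. Male replicate 2 stood out likewise, with 22 of the 33 genes at 10 or more, against 9 to 16 in the other male libraries. Its share of female-enriched genes was 0.294%, within the 0.0704% to 0.465% of the other male libraries.

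Over all 100 genes, the lowest late value exceeded every library of every other group for 27. Lying above every early library was a condition of the choice, and the same count was not made over all genes. The late median was the highest of the 5 group medians for 49, the leaf median for 24, the root median for 23 and the male median for 4. The corresponding shares of all genes with a late median of at least 6 were 21.4%, 24.0%, 13.7% and 26.9%, with the early median highest for the rest. Both the share highest in late and the absence of genes highest in early follow from the choice.

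Among all genes with a late median of at least 6, 7.11% were shared with root and leaf but not male flower. Of the 24 late-high genes of this pattern, 13 had a late median below both the root and the leaf median. It was below root for 18 and below leaf for 17. Over the 24, the median of group medians was 7.61 late, 8.81 in root and 9.26 in leaf, against 3.23 early and 4.46 in male flower. Zosma20g00840 held the highest root level of this pattern. It was counted at 165, 38.2 and 1.30 in early replicates 0 to 2 and at 447, 200 and 418 in the late libraries in order of number. Root replicates 0, 1 and 3 held 78892, 57978 and 62714, far above root replicate 2 at 8105, and leaf ranged from 85.03 over a median of 282 to 2614.

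Smaller sets were shared in other ways, 14 with root alone, 12 with all 3 other tissues, 8 with leaf alone, 6 with male flower and root, and 3 with male flower alone. Among all genes with a late median of at least 6, these patterns held 5.53%, 64.6%, 3.16%, 8.84% and 3.33% in that order. Zosma26g00830 was the leaf gene with the highest level. Its early values were 58.5, 28.3 and 0.650, its late values 1843, 788 and 1164, and in leaf it ranged from 4862 over a median of 10910 to 113810. Zosma37g01090 was the most abundant of the 12 genes shared with all 3 tissues. It stood at 48.3, 55.5 and 12.3 early and at 2222, 1463 and 2282 late, with 19157 to 30266 in root, 3456 to 20159 in leaf and 75.3 to 1866 in male flower. Both of these genes thus stood lower in late female flower than in the vegetative tissue where they were most abundant.

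Late libraries also differed from early ones in the share taken by genes enriched in other tissues. Leaf-enriched genes (605 genes, late-high genes left out) took 1.93% to 2.19% of the signal in the early and 2.29% to 2.97% in the late libraries, so the groups did not overlap. Root-enriched genes (881 genes) took 0.325% to 0.373% early and 0.338% to 0.442% late, which overlapped. Male-enriched genes (1981 genes) took 4.24% to 5.74% early and 3.84% to 3.94% late, which did not overlap. Whether this signal came from other tissue or from the female flower itself was not tested. Nor was its part in the level of the genes shared with leaf or root.

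Of the late-high genes, 3 had consecutive identifiers, Zosma2g02000, Zosma2g02010 and Zosma2g02020. All were among the 10 largest differences, and they are described because of that position, chosen after their values were seen. No other late-high genes were neighbours in identifier order, and the 100 genes spread over 79 identifier prefixes (the part before the letter g). Whether these 3 genes are near-identical copies could not be checked without sequences. Reads shared between such copies could be counted at each copy or divided among them. The separate values of the 3 genes would then be uncertain. In the early libraries 2, 1 and 0 fragments were counted for them in all. Zosma2g02000 stood at 142 and 250 in late replicates 0 and 1 and at 1234 in the library of conflicting labels. Zosma2g02010 stood at 60.0, 121 and 350 in the same libraries, and Zosma2g02020 at 62.7, 139 and 336, which is at least 96.7-fold higher than early if each early library is set to a floor of 3 fragments. Without the library of conflicting labels that bound was 54.5-fold.

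The trio moved together in the other tissues. Zosma2g02000 was at 8341, 6912 and 8064 in root replicates 0, 1 and 3 but at 13.7 in root replicate 2, and Zosma2g02010 and Zosma2g02020 were at 1508 to 1820 in those 3 roots and at 0.855 each in replicate 2. In male flower Zosma2g02000 ranged from 3.27 over a median of 65.9 to 5855, with replicate 1 highest. In leaf it stayed between 2.90 and 8.10. Over the 23 libraries the log2 values of Zosma2g02000 and Zosma2g02010 correlated at 0.978 and those of Zosma2g02010 and Zosma2g02020 at 0.995 (Pearson), which describes libraries that share depth and tissue.

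**Figure D4:**
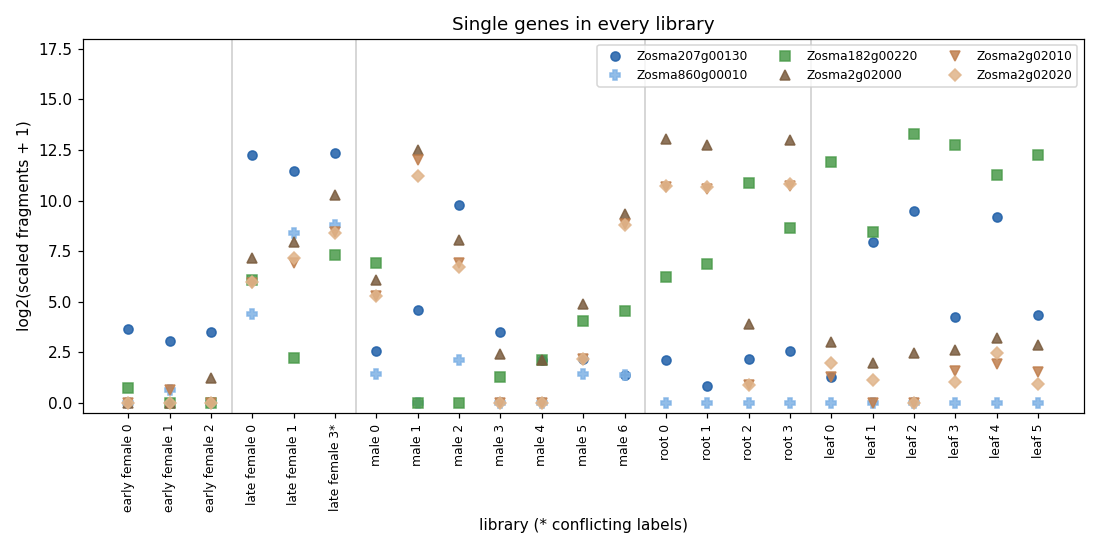
Level of 6 late-high genes, as log2(scaled fragments + 1), in each of the 23 libraries, with vertical lines between the groups. Zosma207g00130 and Zosma860g00010 are highest in late female flower, Zosma182g00220 in leaf, and the neighbouring Zosma2g02000, Zosma2g02010 and Zosma2g02020 are high in male replicate 1 and in 3 of 4 roots, with root replicate 2 at 13.7 scaled fragments or less.

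Gene length and level per length were compared as well. The ratio of the scaled fragments to FPKM, the deposited value per kilobase, is proportional to the length the authors used, and relative to the median gene it had a median of 0.808 in the late-high genes (quartiles 0.535 and 1.14) and 1.12 in all genes with a late median of at least 6 (quartiles 0.744 and 1.61). Per length, the late-high genes had a median level of 30.3 FPKM late, from 2.51 to 3869, and 0.935 FPKM early. It was 12.2 FPKM in root, 6.29 in leaf and 1.96 in male flower. All genes with a late median of at least 6 had a late median of 18.8 FPKM.

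The late-high genes varied more between replicates than other genes did, in every group. The median over the genes of the SD on the log2 scale was 0.87 early and 0.68 late, against 0.19 and 0.21 over all genes with a late median of at least 6. In male flower it was 1.66 against 0.61, in root 1.19 against 0.45 and in leaf 1.51 against 0.67. The median of group medians of the late-high genes was 8.27 late, 3.64 early, 4.39 in male flower, 7.14 in root and 5.60 in leaf. Over all genes with a late median of at least 6 it was 8.22, 8.17, 7.94, 8.06 and 8.08 in that order. Counting error is larger at low values. Neither the difference in spread nor the part of counting error in it was tested.

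Contrasts among male flower, root and leaf used no female library in the values compared and could be tested. The question was whether the late-high genes, beyond their late level, were unequal among the other tissues. The limma fit took in every gene that reached 10 scaled fragments in 2 libraries or more, 17445 in all. Calls required a 2-fold change or more and a p below 0.05 after Benjamini-Hochberg adjustment over all of these genes. All 100 genes passed that filter, which their late level alone ensured, but 13 to 15 of them had fewer than 2 libraries at 10 in the tissues of a given contrast.

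Male flower differed from leaf in both directions. Of the 100 genes, 39 were higher in leaf, where 24.6% of all genes tested were, and 15 were higher in male flower, where 31.9% were. Of these 15, 3 were low in both tissues and entered the test only through their level in other groups; without them the count was 12. Their median log2 fold change of male flower over leaf was -1.32, against 0.19 for all genes. The groups did not overlap for 21 genes higher in leaf (14.4% of all genes) and 5 higher in male flower (18.3%). The shift towards leaf depended on the libraries that stand apart. Without leaf replicates 1 and 4, root replicate 2 and male replicate 5, 35 genes were higher in leaf and 23 in male flower. Their median then came to -0.01 on the log2 scale, against 0.35 for all genes. Library weights gave 35 higher in leaf and 28 in male flower, with a median of -0.01. Library totals set equal gave 45 higher in leaf and 10 in male flower, and moved the median of all genes from 0.19 to -0.38. Here and in the contrasts below, counts under an alternative come without the share of all genes called under it. A change in such a count may therefore not be particular to the late-high genes.

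Zosma182g00220 showed the largest fold in favour of leaf. In the female flower it stood at 0.680, 0 and 0 early and at 66.0, 3.63 and 158 late. It ranged from 353 over a median of 4293 to 10073 in leaf and from 0 over 3.27 to 119 in male flower, so the groups did not overlap, and its log2 difference was -8.96 (SE 1.11, adjusted p = 4.34e-07, limma). Zosma10g00610, at 228 to 1693 in leaf with a median of 957 and at 0 to 1.70 in male flower, had -8.90 (SE 0.453, adjusted p = 1.01e-12, limma). Its late values lay close together at 80.0, 77.0 and 76.1, beside 7.48, 8.38 and 4.55 early. In the other direction, Zosma195g00170 was at 0 in all 6 leaf libraries and at 9.04 over a median of 172 to 245 in male flower, at least 41.6-fold higher with leaf set to 3 fragments in each library. The fitted log2 difference of 6.27 (SE 0.719, adjusted p = 1.41e-07, limma) moves with the pseudocount, since leaf was at 0. Zosma56g01410 ranged from 583 over a median of 1938 to 3715 in male flower and from 3.62 over 15.7 to 235 in leaf, which limma fitted at 5.90 (SE 0.830, adjusted p = 2.39e-06).

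Against root, the shift was wider. Of the 100 genes, 48 were higher in root, where 26.3% of all genes tested were, and 8 were higher in male flower, where 26.2% were. The median log2 fold change of male flower over root was -2.38, against -0.05 for all genes. Groups did not overlap for 29 genes higher in root (18.4% of all genes) and 5 higher in male flower (21.2%). Among the genes low in both tissues, 1 of the 48 and 1 of the 8 were called. Library weights gave 59 higher in root and 15 in male flower. With equal library totals the counts were 55 and 5 and the median of all genes moved to -0.96.

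Zosma20g00840, described above, stood at 21.4 over a median of 47.3 to 314 in male flower, and its log2 difference to root was -8.97 (SE 1.09, adjusted p = 5.10e-07, limma). Zosma49g00480 was at 6663, 5396, 12611 and 12624 in root replicates 0 to 3 and at 3.27 over a median of 68.0 to 1327 in male flower, with -7.21 (SE 1.03, adjusted p = 4.41e-06, limma). On the side of male flower, Zosma216g00330 was at 0 in all 4 roots and at 5.10 over a median of 16.3 to 446 in male flower, at least 33.4-fold higher with the same floor for root. That bound rested on male replicate 2 and was 6.81-fold without it. The fitted log2 difference of Zosma216g00330 was 4.59 (limma, SE 0.807, adjusted p = 5.52e-05), and in late female flower the gene reached 6119, 6745 and 2558. Zosma89g00960 stood at 0.814 to 2.66 in root and at 4.52 over a median of 90.2 to 168 in male flower, with 4.26 (SE 0.979, adjusted p = 8.47e-04, limma).

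Between root and leaf, calls were made in both directions. Of the 100 genes, 19 were higher in root, where 18.2% of all genes tested were, and 15 were higher in leaf, where 11.5% were. The median log2 fold change of root over leaf was 0.18, the same as the 0.18 of all genes, while the median absolute change was 1.87 against 0.84. Groups did not overlap for 12 genes higher in root (8.71% of all genes) and 7 higher in leaf (9.05%). Library weights raised the limma calls from 19 to 42 higher in root and from 15 to 28 higher in leaf. The count higher in leaf was 8 without root replicate 0 and 8 without root replicate 1, and that higher in root was 33, with 20 higher in leaf, without leaf replicates 1 and 4, root replicate 2 and male replicate 5.

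Zosma162g00460 was the root gene with the largest fold. It was counted at 5861, 6458, 9375 and 14695 in root replicates 0 to 3 and at 6.34 over a median of 10.7 to 55.8 in leaf, with a log2 difference of 9.28 (SE 0.753, adjusted p = 4.95e-09, limma). Late female flower held 140, 571 and 501 of it, which lies between these tissues. Zosma32g00910, the last gene kept, was at 10460, 10590, 3197 and 14595 in root and at 6.96 to 26.9 in leaf, with 9.01 (SE 0.613, adjusted p = 4.49e-10, limma). On the side of leaf, Zosma10g01450 ranged from 1572 over a median of 2301 to 11692 in leaf and from 0.747 to 8.55 in root, with -9.04 (SE 0.766, adjusted p = 9.08e-09, limma), and its late values were 799, 533 and 405 after 81.7, 42.4 and 48.1 early. Zosma10g00610, described above for male flower, was at 2.99 to 8.96 in root and had -7.01 (SE 0.525, adjusted p = 1.50e-09, limma).

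**Figure D5:**
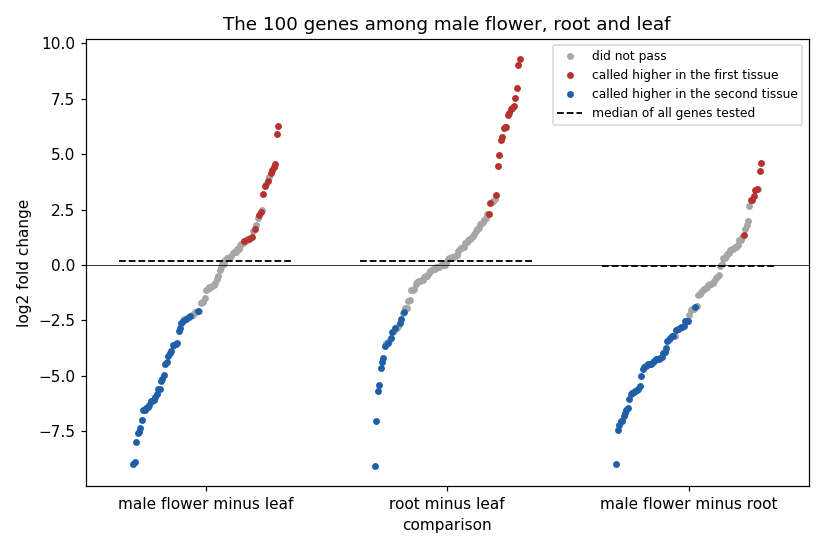
Log2 fold change of each of the 100 late-high genes in the 3 contrasts among male flower, root and leaf, ordered within each contrast, with the genes called by limma in colour and the median of all genes tested as a dashed line. Between male flower and root 48 genes were called higher in root and 8 higher in male flower, and between root and leaf the calls were 19 and 15.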

How the data were processed

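The authors deposited 2 tables over 22733 identifiers and 23 libraries. Cuffdiff 2.2.1, Cuffnorm 2.2.1 and TopHat2 2.0.12 stand in the submitters' processing notes, with neither role nor order. Build, annotation and strandedness were not given in the sources used. The deposited table of counts is not whole-numbered and is treated as a scaled signal: 98.4% to 99.6% of the non-zero values of a library were whole multiples, to 0.01, of a step between 0.524 and 4.52 that was read from the values, which gave the fragment totals. Since the remaining values were not whole, the planned count test was not run. The FPKM table deposited by the authors served for level per length and as an alternative.

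Groups came from the titles, except for the library of conflicting labels, placed by its tissue label. No pair of replicates of a group, of 48 compared, agreed within sampling noise (smallest chi-square per degree of freedom 18.8). A linear model with a coefficient for each of 5 groups was fitted to log2(value + 1) by limma 3.58.1 under R 4.3.3, with trended and robust variance moderation, and the steps were tested on simulated data. Fold changes on this scale understate those of low genes. The members, groups and tests were chosen with earlier results of these data known. Named genes are those with the largest late minus early difference or late level, the 2 called genes with the largest fold per contrast and direction whose groups do not overlap, and the highest gene of each sharing pattern. Lists of genes by product name were not analysed here. Counts of fragments, floors and intervals cover counting error only. Python 3.11.15, numpy 2.4.6, pandas 2.3.3 and matplotlib 3.10.9 made the tables and plots. Alternatives were pseudocounts, filters, scalings, the FPKM table, library weights, a fit restricted to the groups compared, a replicate block and each library left out.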

Additional observations from a re-analysis of the deposited data

Results flagged for a closer look

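In 57 sets of values (the 17 named genes and 2 summaries of all late-high genes, each in male flower, root and leaf), 9 had a library farther from the others than Dixon's test allows at 95%, where chance marks about 5% of sets. Sets at 0 in every library are among the 57 but cannot be marked. Sets of the same tissue also share their libraries, so the 9 were not tested against that 5%. Values are log2(scaled fragments + 1). In male replicate 2, 3 genes that were high in late female flower stood apart: Zosma207g00130 at 9.80 (next highest male library 4.56), Zosma216g00330 at 8.81 (next 5.03) and Zosma2g00100 at 10.67 (next 6.99). In male replicate 1, Zosma10g01450 stood high at 8.82 (next 5.78) and Zosma32g00910 low at 5.90 (next 8.58). In root replicate 2, Zosma20g00840 stood low at 12.98 (next 15.82). In leaf, Zosma162g00460 stood high in replicate 4 at 5.83 (next 3.75), Zosma89g00960 in replicate 1 at 5.34 (next 1.27), and Zosma216g00330 in replicate 2 at 1.09, a level of 1 fragment where all other leaf libraries were at 0. Neither the share of fragments nor the median of the 100 genes had a library that stood apart in this way.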

How the results depend on the processing

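The 12 single-gene tests named in the report kept their direction and their call in all 408 combinations with an alternative. These genes were chosen as called genes with the largest folds and groups that do not overlap. That choice favours stable calls, so the count says little about the other late-high genes. Estimated library weights raised the calls among late-high genes to 28 higher in male flower than leaf, 42 higher in root and 28 higher in leaf between those tissues, and 15 higher in male flower than root. Without leaf replicates 1 and 4, root replicate 2 and male replicate 5, 23 were higher in male flower than leaf, 33 higher in root than leaf and 20 higher in leaf than root. Equal library totals left 5 higher in male flower than root, and 12 shared with male flower. Genes shared with male flower numbered 11 within 1 log2 unit and 37 within 3. Moving the library of conflicting labels to the early group kept 22 genes, and leaving out 1 female library kept 79 to 91. Over the 23 libraries left out in turn, the calls were 10 to 19 higher in male flower and 36 to 41 higher in leaf, 18 to 24 higher in root and 8 to 17 higher in leaf, and 6 to 11 higher in male flower and 43 to 52 higher in root; with 17 libraries left out, 15 to 25 genes were shared with male flower, 29 to 35 with none, 54 to 58 with root and 41 to 54 with leaf. The replicate block gave 13 and 39, 19 and 15, and 10 and 43 calls in the same order. Numbers did not pair the samples: same-numbered deviations correlated at -0.52 to 0.63, and 1 of 6, 1 of 4 and 0 of 4 libraries correlated best with their own number. The count test could not be run. The share of all genes called under each alternative is not given beside these counts, which may move with it. The cause of these changes was not tested. Depth limits the early levels of the genes at or near 0.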
